A study of Mus musculus with 10 samples.

Results

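The transcripts of 38 genes of the tricarboxylic acid (TCA) cycle, of its transaminase and anaplerotic side reactions and of branched-chain amino acid breakdown were followed in the left ventricle of mice without the melanocortin 4 receptor. The genes were taken by symbol from a gene table of 24160 rows, and each of the 38 had 1 row. They fall into 16 genes of the TCA cycle, 6 of transamination and anaplerosis, and 16 of branched-chain amino acid breakdown. They were listed by pathway and not by a threshold on measured values, though with earlier results of these data known. Polyadenylated RNA from the posterior left ventricular wall was sequenced in 6 MC4R-/- and 4 WT libraries. Both groups were C57BL6/J mice aged 30 weeks, bred from heterozygous parents, housed at 24 °C and given no treatment that the labels name. The labels name neither the allele nor a tissue-restricted deletion. They speak of mice without stating that every library came from its own animal, and the p-values here are about the spread between libraries, which may be technical.

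The TCA cycle oxidizes the acetyl group of acetyl-CoA in the mitochondrial matrix and passes the electrons to the respiratory chain, and cardiac muscle, which contracts without rest, is among the tissues richest in its enzymes. Anaplerotic enzymes such as pyruvate carboxylase refill the pool of cycle intermediates, and the aspartate transaminases move carbon and reducing equivalents between cytosol and matrix in the malate-aspartate shuttle. Leucine, isoleucine and valine are first transaminated, then oxidized irreversibly by the branched-chain ketoacid dehydrogenase complex, which a dedicated kinase switches off and a dedicated phosphatase switches on, and their carbon enters the cycle as acetyl-CoA or succinyl-CoA.

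Values are reads per gene, each library divided by its own size factor, and are called normalized counts here. The libraries held 4145033 to 6425785 reads assigned to genes, the lowest in WT replicate 3 and the highest in WT replicate 4. The targeted gene Mc4r had 4 reads over the MC4R-/- libraries and 2 over the WT libraries, with at most 2 in any library, so at this depth it checks no label. Cardiomyocyte markers were abundant in every library, with a sum of 412555 to 474838 normalized counts in MC4R-/- and 433803 to 482195 in WT ventricles, and 7 of the 9 had a lower mean in MC4R-/- (median log2 fold change -0.10, 0 past the threshold). The fibroblast markers had sums of 6858 to 8155 in MC4R-/- and 6044 to 7153 in WT, with all 8 means higher in MC4R-/- (median 0.25, 1 past the threshold). The macrophage markers had sums of 1636 to 1864 in MC4R-/- and 1293 to 1602 in WT, with 7 of 8 means higher in MC4R-/- (median 0.18, 0 past the threshold). Atrial markers reached 1893 in MC4R-/- replicate 5 and 408 in MC4R-/- replicate 6, against at most 208.8 in any WT library. Lymphocyte markers reached at most 39.5 in any MC4R-/- library, against 696 in WT replicate 2. The endothelial markers had 5 of 7 means higher in MC4R-/- (median 0.08, 0 past the threshold). Of the smooth muscle and pericyte markers, 5 of 7 means were lower (median -0.05, 0 past the threshold). Of all genes tested, 0.459% passed the threshold and 51.6% had a lower mean log2 value. Rows were read for 9 of the 10 lymphocyte and 2 of the 5 erythroid markers. None of the markers read was at 0 in all libraries. The part of these marker differences in the values below was not tested. In RNA of whole tissue, fewer cells of a type and less RNA per cell cannot be told apart.

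No gene of the 3 groups passed an adjusted p of 0.05 between the genotypes (limma with Benjamini-Hochberg adjustment over 14611 genes), where 0.459% of all genes tested did. With edgeR's quasi-likelihood test on the recovered reads the count was again 0 of 38, against 0.411% of all genes. DESeq2 called 2 of 38, Me1 and Aldh6a1, against 0.835% of all genes. Counted at an unadjusted p below 0.05, 1 gene was higher in MC4R-/- (Me1), where 5.19% of all genes were, and 4 were lower (Aldh6a1, Bckdhb, Cs and Ppm1k), where 4.41% of all genes were. The MC4R-/- libraries lay above all WT libraries in 1 gene (Me1), against 1.34% of all genes, and below all of them in 1 gene (Aldh6a1), against 0.938% of all genes.

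The differences were small and mostly of 1 sign. The mean log2 value was lower in MC4R-/- for 35 of the 38 genes (92.1%), against 51.6% of all genes tested and 50.4% of the 3592 genes with a mean at least that of the lowest of the 38. The exceptions were Me1, Bckdk and Bckdha, and the sign of Bckdha turned under several settings. The count depended on single libraries and was 29 of 38 without WT replicate 1. The genes share the same libraries and are not independent, so their number is not a number of replicates. The median log2 fold change over the 38 was -0.06, against -0.0055 over all genes tested, and 30 of the 38 had an absolute value below 0.1. For 33 genes the 95% interval of the change included 0, with bounds between -17.8% and 14.2%, so larger differences than these lie outside the intervals. Reads per gene and library ran from 171 to 22726, and the median coefficient of variation between libraries was 6.65% in MC4R-/- and 5.24% in WT, against 2.17% from counting alone.

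**Figure D1:**
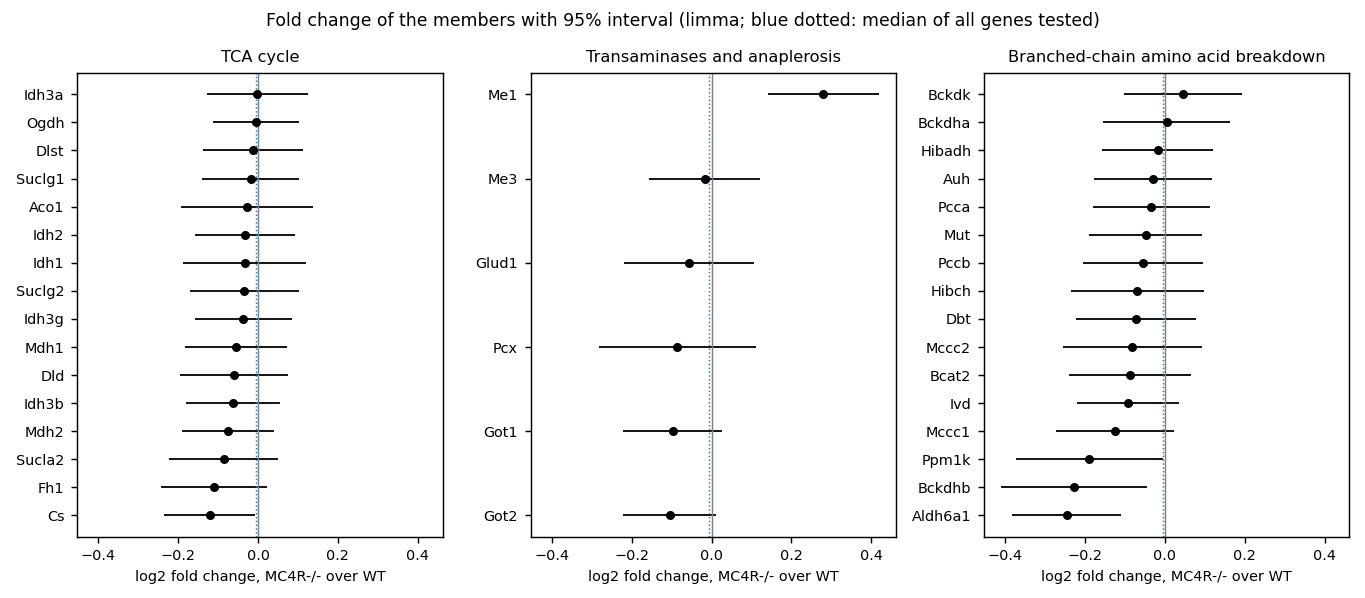
Log2 fold change, MC4R-/- over WT, of each of the 38 genes (points) with its 95% interval from limma (lines), in 3 panels by group; the dotted line is the median of all genes tested. Me1 and Aldh6a1 lie farthest from 0, at 0.28 and -0.25, and 33 of the 38 intervals include 0.

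In the TCA cycle, all 16 transcripts had a lower mean in MC4R-/- ventricles, by little: the log2 fold changes ran from -0.12 to -0.0017 with a median of -0.04, and 14 of the 16 were below 0.1 in size. The sign of 7 of them (Aco1, Idh1, Idh3a, Ogdh, Dlst, Suclg1 and Suclg2) turned under at least 1 alternative setting or left-out library. Cs, which encodes citrate synthase, the enzyme that condenses acetyl-CoA with oxaloacetate (chr10:128337727-128362482, GRCm38), had the smallest p of the group. It had 10433, 11404 and 11733 normalized counts as the lowest, median and highest of the 6 MC4R-/- libraries, against 12452, 12598, 12334 and 11473 in WT replicates 1 to 4. All MC4R-/- libraries lay below WT replicates 1 to 3, and 3 of the 6 lay above WT replicate 4, so the groups overlapped through that WT library. The means were 11229.5 ± 547 in MC4R-/- (SD, n = 6) and 12214 ± 506 in WT (SD, n = 4), and the log2 fold change was -0.12 ± 0.06 (SE; limma, adjusted p = 0.470).

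Fh1, fumarate hydratase, which adds water to fumarate to give malate (chr1:175601378-175625635), ran from 2661 over a median of 2902 to 3103 in the MC4R-/- libraries, against 3072, 3002, 3411 and 2983 in WT replicates 1 to 4. The groups overlapped, with WT replicate 3 above every other library. Its log2 fold change was -0.11 ± 0.06 (limma, adjusted p = 0.635). Mdh2, the malate dehydrogenase of the matrix that regenerates oxaloacetate (chr5:135778649-135790386), had 8106, 8375 and 9052 as its lowest, median and highest MC4R-/- values, against 9064, 9556, 8532 and 8779 in WT. WT replicates 1 and 2 lay above every MC4R-/- library and WT replicates 3 and 4 within their range, with a log2 fold change of -0.08 ± 0.06 (adjusted p = 0.732, limma). Sucla2, the subunit that makes succinyl-CoA synthetase form ATP (chr14:73552786-73596144), had 4486, 4962 and 5488 in MC4R-/-, against 5114, 4966, 5929 and 4949.8 in WT. WT replicate 3 was the highest of the 10 libraries, and the log2 fold change was -0.09 ± 0.07 (limma, adjusted p = 0.735).

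Ogdh, the catalytic subunit of the oxoglutarate dehydrogenase complex (chr11:6291597-6359094), had the most normalized counts of the group. It ran from 18671 over a median of 19986 to 20704 in MC4R-/-, against 20988, 20514, 19227 and 18921 in WT. The groups overlapped almost fully, with means of 19836 ± 804 in MC4R-/- (SD, n = 6) and 19912 ± 995 in WT (SD, n = 4). The partners of Ogdh in that complex, Dlst and Dld, averaged 5198 ± 314 and 3862 ± 277 in MC4R-/- and 5243 ± 278 and 4029 ± 308 in WT. The rate-controlling NAD-dependent isocitrate dehydrogenase is built of Idh3a, Idh3b and Idh3g, and their means were 4358 ± 280, 4486 ± 185 and 3229.7 ± 127 in MC4R-/- and 4359.9 ± 214, 4688 ± 174 and 3314 ± 148 in WT. Each of these transcripts overlapped between the genotypes, and the limma adjusted p was at least 0.690 for all 26 genes outside the 12 with the smallest p in their groups.

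**Figure D2:**
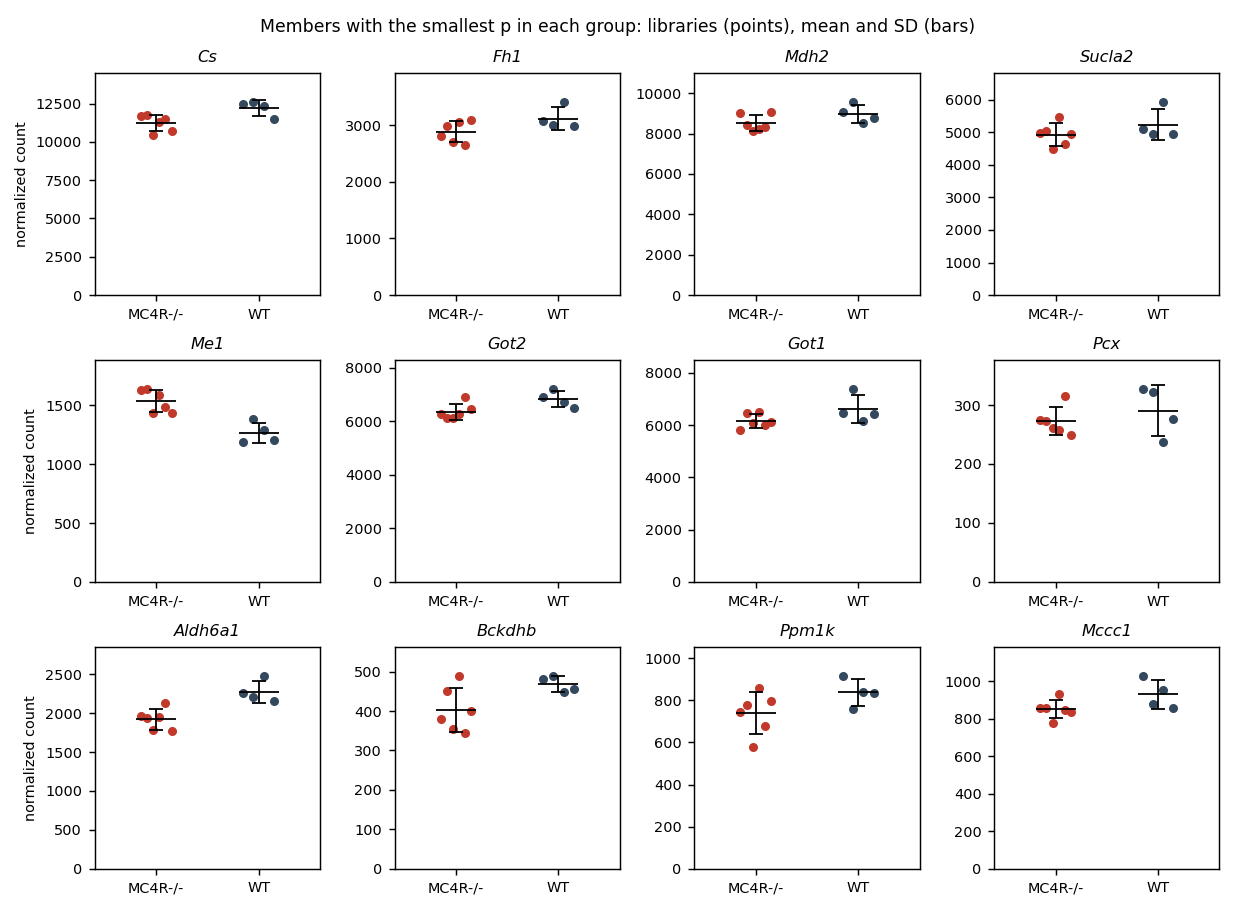
Normalized counts of the 4 genes with the smallest p in each group: points are libraries, bars the mean and SD, MC4R-/- (n = 6) left of WT (n = 4). Only Me1 and Aldh6a1 of these 12 show 2 groups of points that do not overlap.

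Among transaminases and anaplerotic enzymes, the transcript of cytosolic malic enzyme was higher in every MC4R-/- library than in any WT library without passing the test, while the other 5 genes had slightly lower means in MC4R-/-. Me1 encodes the enzyme that decarboxylates malate to pyruvate in the cytosol and forms NADPH (chr9:86581363-86695914). It had 1433, 1536 and 1638 normalized counts as the lowest, median and highest of the MC4R-/- libraries, against 1184, 1380.2, 1288 and 1206 in WT replicates 1 to 4. Every MC4R-/- library lay above every WT library, and WT replicate 2 came closest. The means were 1536 ± 94.9 in MC4R-/- (SD, n = 6) and 1265 ± 89.0 in WT (SD, n = 4), a difference of 21.5% with a 95% interval from 10.2% to 33.9%. The log2 fold change was 0.28 ± 0.07 (SE), with an adjusted p of 0.0619 by limma, which misses the threshold, and of 0.0603 by edgeR.

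The call of Me1 turned with the model and with 1 library. It passed with DESeq2 (adjusted p = 0.0052), with library weights in limma (adjusted p = 0.00848, where 0.808% of all genes passed), after quantile normalization (limma, adjusted p = 0.0480, where 0.452% passed) and without WT replicate 2 (limma, adjusted p = 0.0173, where 0.808% passed). Without WT replicate 2 and MC4R-/- replicate 5, the libraries highest in lymphocyte and in atrial markers, its limma adjusted p was 0.0126 and 1.14% of all genes passed. WT replicate 2 was the WT library closest to MC4R-/- in Me1, so leaving it out could only widen the difference. Over all alternatives the adjusted p of Me1 ran from 0.0052 to 0.320.

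A promoter of Me1 is shown because its transcript had the smallest p of the 38. The sequence is 270 bases of the minus strand at chr9:86695895-86696164 (GRCm38, RefSeq), from 250 bases before an annotated start to 20 after it, with a GC content of 72.6%. RefSeq gives another start of Me1 at chr9:86687277, whose promoter has a GC content of 48.3% and holds no match to the motif below. Which start the reads came from was not tested. The capitals mark the only match in the sequence shown to TGACNNNGC, the core of the antioxidant response element bound by NFE2L2. It begins 6 bases before the start. On both strands 12.4% of the 32851 mouse promoters in the table hold such a match in 300 bases, and a match is no evidence of binding.
Me1: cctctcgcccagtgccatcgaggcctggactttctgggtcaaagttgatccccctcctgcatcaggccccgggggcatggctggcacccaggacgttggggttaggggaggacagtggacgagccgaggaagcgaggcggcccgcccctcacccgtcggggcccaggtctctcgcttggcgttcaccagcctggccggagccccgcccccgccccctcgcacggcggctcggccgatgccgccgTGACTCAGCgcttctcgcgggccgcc

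Got2 and Got1 encode the matrix and cytosolic aspartate transaminases, and Got2 had the highest mean count of its group (chr8:95864133-95888401). Got2 had 6117, 6280.4 and 6911 normalized counts as the lowest, median and highest in MC4R-/-, against 6913, 7205, 6731 and 6512 in WT. WT replicates 1 and 2 lay above every MC4R-/- library, and the log2 fold change was -0.10 ± 0.06 (limma, adjusted p = 0.596). Got1 (chr19:43499752-43524605) had 5826, 6111 and 6494 in MC4R-/-, against 6468, 7378, 6157 and 6425 in WT. WT replicate 2 was the highest library and the other WT libraries lay within the MC4R-/- range, with a log2 fold change of -0.10 ± 0.06 (adjusted p = 0.658, limma). Pcx, pyruvate carboxylase, which makes oxaloacetate from pyruvate (chr19:4510472-4621752), was the lowest of the 38. It had 249.5, 267.5 and 316.0 normalized counts in MC4R-/-, against 327.1, 322.3, 236.7 and 276.5 in WT. The WT libraries spread wider than the MC4R-/- libraries and held both the lowest and the highest value, with a log2 fold change of -0.09 ± 0.10 (adjusted p = 0.835, limma). Me3, the mitochondrial NADP-dependent malic enzyme, averaged 671 ± 18.5 in MC4R-/- and 679 ± 35.1 in WT. Glud1, glutamate dehydrogenase, averaged 1293 ± 138 in MC4R-/- and 1342 ± 111 in WT, in a row that it shares with the pseudogene Gm3219.

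In branched-chain amino acid breakdown, 14 of 16 transcripts had a lower mean in MC4R-/- ventricles, with a median log2 fold change of -0.07 and a range from -0.25 to 0.04, and 12 of the 16 were below 0.1 in size. Aldh6a1 had the smallest p. It encodes methylmalonate semialdehyde dehydrogenase, the last enzyme of valine breakdown before propionyl-CoA (chr12:84430717-84451024). It had 1772, 1942 and 2126 normalized counts as the lowest, median and highest in MC4R-/-, against 2254, 2212, 2479.5 and 2161 in WT. Every MC4R-/- library lay below every WT library. The means were 1920.3 ± 131 in MC4R-/- (SD, n = 6) and 2277 ± 141 in WT (SD, n = 4), a difference of -15.7% with a 95% interval from -23.3% to -7.31%. The log2 fold change was -0.25 ± 0.07 (SE), with an adjusted p of 0.115 by limma and of 0.112 by edgeR.

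The call of Aldh6a1 also turned with the model and with 1 library. It passed with DESeq2 (adjusted p = 0.0198), without MC4R-/- replicate 5 (limma, adjusted p = 0.0469, where 0.623% of all genes passed) and without both that library and WT replicate 2 (limma, adjusted p = 0.0288). MC4R-/- replicate 5 held the highest MC4R-/- value of Aldh6a1, 2126, so leaving it out could only widen the difference. Over all alternatives the adjusted p of Aldh6a1 ran from 0.0198 to 0.394. Of its exonic bases 18.6% lie on the opposite strand of Bbof1, which had 12.4 to 22.4 normalized counts in MC4R-/- and 16.2 to 23.1 in WT, and the sources used here do not say whether the counting used strand.

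A promoter of Aldh6a1 is shown because its transcript had the second smallest p of the 38. It is given over the same window, on the minus strand at chr12:84451005-84451274 (GRCm38, RefSeq), with a GC content of 52.6%. The capitals mark its 4 matches to CCAAT, the box bound by NF-Y, of which the third is read on the other strand as ATTGG. They begin 239, 104, 46 and 19 bases before the start. On both strands 37.4% of the promoters in the table hold at least 1 such match. RefSeq gives another start of Aldh6a1 at chr12:84448317, whose promoter holds 2 such matches.
Aldh6a1: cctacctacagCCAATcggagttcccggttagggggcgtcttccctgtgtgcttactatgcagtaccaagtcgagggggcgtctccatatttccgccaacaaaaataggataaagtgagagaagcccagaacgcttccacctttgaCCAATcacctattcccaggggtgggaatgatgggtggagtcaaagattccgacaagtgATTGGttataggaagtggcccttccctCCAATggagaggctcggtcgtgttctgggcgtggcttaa

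No transcript of the ketoacid dehydrogenase complex or its switch passed the threshold in limma, and the genotypes overlapped in each. Bckdhb, the beta chain of the decarboxylase (chr9:83925111-84124240), had 345.4, 389.8 and 489.2 normalized counts as the lowest, median and highest in MC4R-/-, against 482.0, 489.2, 448.6 and 455.2 in WT. Its MC4R-/- libraries spread wider than its WT libraries and overlapped them, with a log2 fold change of -0.23 ± 0.09 (adjusted p = 0.364, limma). Bckdha, the alpha chain, averaged 2123 ± 169 in MC4R-/- and 2123 ± 255 in WT. Dbt, the transacylase core, averaged 659.97 ± 53.1 in MC4R-/- and 693 ± 35.4 in WT. Ppm1k, the phosphatase that activates the complex (chr6:57506502-57535552), had 579.3, 761.3 and 858.4 in MC4R-/-, against 915.9, 761.0, 839.0 and 836.4 in WT. The groups overlapped, and the log2 fold change was -0.19 ± 0.09 (limma, adjusted p = 0.502). Bckdk, the kinase that inhibits the complex, averaged 716 ± 54.2 in MC4R-/- and 693 ± 28.5 in WT (log2 fold change 0.04, limma, adjusted p = 0.894). Of the exonic bases of Bckdha 61.7% lie opposite B3gnt8, which had 14.2 to 21.8 normalized counts in MC4R-/- and 9.69 to 16.4 in WT, and of those of Bcat2 15.9% lie opposite 0610005C13Rik, which had at most 5.23 in MC4R-/- and 1.81 in WT.

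Downstream, Ivd, the isovaleryl-CoA dehydrogenase of leucine breakdown (chr2:118861959-118882909), had the most normalized counts of the group. It had 2373, 2551 and 2851 as the lowest, median and highest in MC4R-/-, against 2711, 2795, 2647 and 2768 in WT. The groups overlapped through MC4R-/- replicate 6, which lay above every WT library, while every other MC4R-/- library lay below them all. The log2 fold change was -0.09 ± 0.06 (adjusted p = 0.690, limma). Mccc1, the biotin-carrying subunit of methylcrotonoyl-CoA carboxylase (chr3:35956292-36000694), had 778, 853.5 and 934.6 in MC4R-/-, against 1029, 881.9, 955.2 and 855.8 in WT. WT replicates 1 and 3 lay above every MC4R-/- library, and the log2 fold change was -0.12 ± 0.07 (limma, adjusted p = 0.625). Mut, methylmalonyl-CoA mutase, which makes succinyl-CoA and is listed as Mmut in the annotation, averaged 1057 ± 72.8 in MC4R-/- and 1092 ± 56.5 in WT. The remaining genes, Bcat2, Mccc2, Pcca, Pccb, Hibch, Hibadh and Auh, had changes within the range of -6.21% to 3.15% that held all 26 genes outside the 12 with the smallest p.

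**Figure D3:**
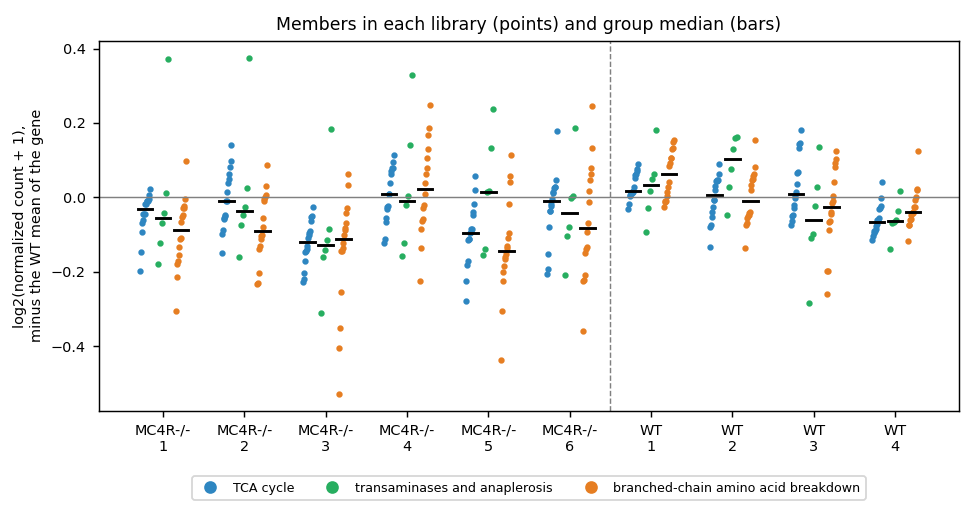
Each point is 1 of the 38 genes in 1 library, as log2(normalized count + 1) minus the WT mean of that gene; bars are the group medians and MC4R-/- replicates stand left of the dashed line, WT replicates right of it. MC4R-/- replicate 3 had 35 of 38 genes below the WT mean and MC4R-/- replicate 4 had 17, against 8 in WT replicate 1 and 32 in WT replicate 4.

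The libraries of both genotypes differed among themselves about as much as the genotypes did. The number of the 38 genes below the WT mean was 33, 25, 35, 17, 29 and 23 in MC4R-/- replicates 1 to 6, against 8, 17, 21 and 32 in WT replicates 1 to 4. MC4R-/- replicate 4 was thus among the libraries with few low genes, and WT replicate 4 among those with many. Averaged over the genes of a group, log2(normalized count + 1) ran from 11.93 to 12.06 in MC4R-/- and from 11.99 to 12.08 in WT for the TCA cycle. The average was 10.60 ± 0.05 in MC4R-/- and 10.62 ± 0.07 in WT for transaminases and anaplerosis. For branched-chain breakdown it was 9.87 ± 0.06 in MC4R-/-, from 9.80 to 9.98, and 9.95 ± 0.04 in WT, from 9.92 to 10.01. The genotypes overlapped in all 3 groups.

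Divided by transcript length and scaled to a sum of 1000000 per library, levels could be compared between genes. The length of a gene was the median over its RefSeq transcripts matched in GENCODE. Which transcripts the reads came from was not tested, and levels and ratios per length depend on it. The most abundant transcripts were Idh2, the NADP-dependent isocitrate dehydrogenase of the matrix, at 2856 ± 177 (SD, n = 10 libraries), and Mdh1, the cytosolic malate dehydrogenase, at 2828 ± 178, which did not differ beyond their spread. Mdh2 followed at 2159 ± 97.2, Ogdh at 1744 ± 72.4, Cs at 1434 ± 81.7 and Got1 at 1112 ± 62.8, and each of Mdh1, Mdh2, Ogdh and Cs stood above the next by more than the spread of both. Idh3b, at 1020.1 ± 36.9, overlapped both Got1 above it and Got2, at 935 ± 49.7, below it.

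The branched-chain genes stood lower. Hibadh, hydroxyisobutyrate dehydrogenase of the valine branch, was the highest at 459 ± 30.2, next to Bckdha at 404 ± 36.8, with Fh1 between them at 408 ± 26.2. Ivd followed at 259 ± 13.5, Aldh6a1 at 219 ± 23.5 and Bcat2, the mitochondrial branched-chain transaminase, at 169 ± 12.6. Bckdhb reached 108 ± 12.7, Mut 105 ± 5.95, Dbt 73.6 ± 4.79 and Bckdk 75.0 ± 4.44, and the last pair did not differ beyond its spread. Ppm1k, at 50.5 ± 5.94, was the lowest of the branched-chain genes. Lowest of all were Aco1, the cytosolic aconitase, at 29.1 ± 1.72, and Pcx at 24.7 ± 2.81, which overlapped each other. Me1 stood at 157 ± 18.4 over all libraries, above Me3 at 54.3 ± 2.02.

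**Figure D4:**
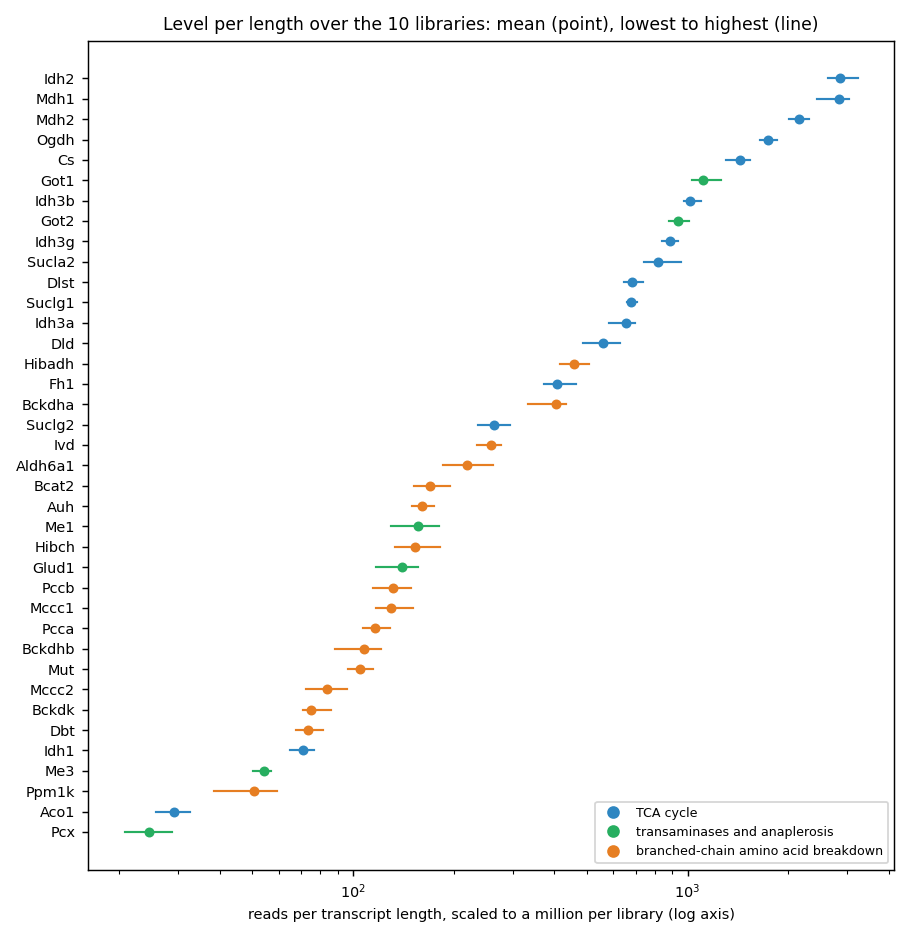
Level per transcript length of each of the 38 genes over all 10 libraries on a log axis, scaled to a sum of 1000000 per library: points are means and lines run from the lowest to the highest library, coloured by group. Levels run from 24.7 for Pcx to 2856 for Idh2, and the highest branched-chain gene is Hibadh at 459.

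The ratio of 2 genes within a library does not depend on how the library was scaled, and 12 such pairs of isoforms, subunits, or enzyme and regulator were compared. In 1 of them the genotypes did not overlap. The log2 ratio of the mitochondrial to the cytosolic malic enzyme, Me3 over Me1, was -1.26, -1.32, -1.16, -1.22, -1.12 and -1.08 in MC4R-/- replicates 1 to 6, against -0.74, -0.99, -1.03 and -0.81 in WT replicates 1 to 4. Every MC4R-/- library lay below every WT library. The means were -1.19 ± 0.09 in MC4R-/- and -0.89 ± 0.14 in WT, a difference of -0.30 ± 0.08 (SE). The exact two-sided permutation test gave p = 0.00476, the smallest that 6 against 4 libraries allow, and a Benjamini-Hochberg adjusted p of 0.0571 over the 12 pairs, below which a single pair cannot go. The pair contains Me1, so this is no result apart from that of Me1. Per length, Me3 stood at 0.321 ± 0.0195 of Me1 in MC4R-/- and at 0.396 ± 0.039 in WT.

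The balance of kinase to phosphatase of the branched-chain complex, the log2 ratio of Bckdk to Ppm1k, averaged -0.04 ± 0.22 in MC4R-/- and -0.27 ± 0.15 in WT. The difference of 0.23 ± 0.12 did not pass (exact two-sided permutation, p = 0.114, adjusted p = 0.514), and the genotypes overlapped. The ratio of the alpha to the beta chain, Bckdha to Bckdhb, averaged 2.40 ± 0.29 in MC4R-/- and 2.17 ± 0.13 in WT (exact two-sided permutation, p = 0.171, adjusted p = 0.514). Per length, Bckdha stood at 3.81 ± 0.69 times Bckdhb over all libraries. The ratio of the ATP-forming to the GTP-forming subunit of succinyl-CoA synthetase, Sucla2 to Suclg2, averaged 1.21 ± 0.05 in MC4R-/- and 1.26 ± 0.06 in WT (exact two-sided permutation, p = 0.138, adjusted p = 0.514). Per length, Sucla2 stood at 3.09 ± 0.12 times Suclg2.

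The other 8 pairs had differences from -0.04 to 0.02 on the log2 scale with adjusted p of 0.990 (exact two-sided permutation). Mitochondrial over cytosolic isocitrate dehydrogenase, Idh2 to Idh1, averaged 4.93 ± 0.16 in MC4R-/- and 4.93 ± 0.08 in WT, and per length Idh2 stood at 40.4 ± 3.52 times Idh1 over all libraries. Malate dehydrogenases, Mdh2 to Mdh1, averaged -0.94 ± 0.14 in MC4R-/- and -0.92 ± 0.11 in WT. Aspartate transaminases, Got2 to Got1, averaged 0.04 ± 0.11 in MC4R-/- and 0.05 ± 0.07 in WT. The subunits of propionyl-CoA carboxylase, Pcca to Pccb, averaged 0.03 ± 0.18 in MC4R-/- and 0.01 ± 0.08 in WT.

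**Figure D5:**
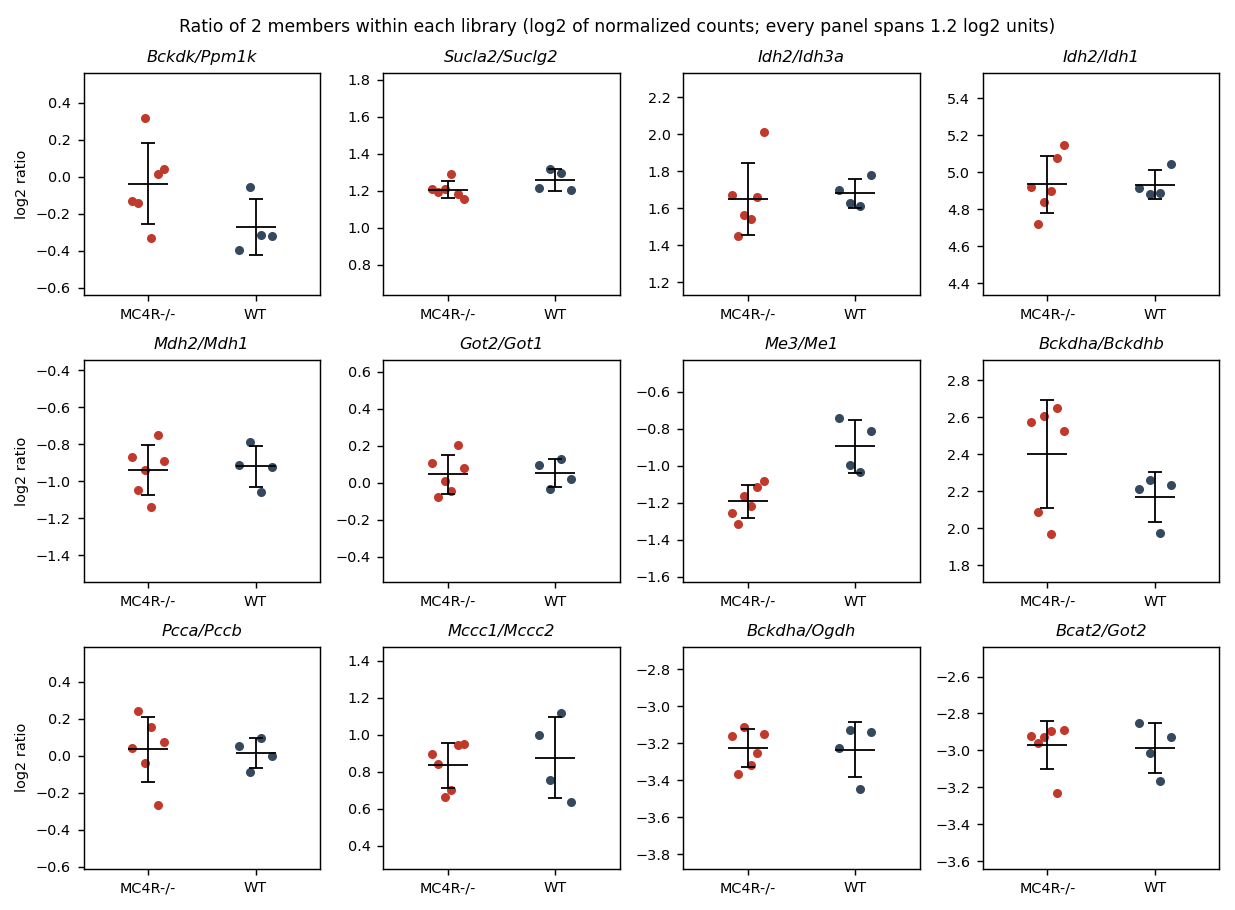
Log2 ratio of 2 genes within each library for the 12 pairs, MC4R-/- (n = 6) left of WT (n = 4); points are libraries, bars the mean and SD, and every panel spans 1.2 log2 units. In the Me3/Me1 panel the MC4R-/- points, from -1.32 to -1.08, lie below the WT points, from -1.03 to -0.74, and in no other panel are the groups apart.

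Other genes of the same pathways were read from the same fit, in which 0.459% of all genes tested were called and 51.6% had a lower mean log2 value. Of 14 further TCA cycle genes 0 were called by limma, and 10 had a lower mean in MC4R-/-, with a median log2 fold change of -0.02. The assembly factor Sdhaf2 averaged 443 ± 28.8 in MC4R-/- and 389 ± 30.7 in WT (limma, adjusted p = 0.401), and Ogdhl, a paralog of Ogdh, averaged 1285 ± 89.2 in MC4R-/- and 1465 ± 232 in WT (limma, adjusted p = 0.502). Sdha, the flavoprotein subunit of succinate dehydrogenase, was named after its values were seen, since its highest MC4R-/- library, at 12592, lay below its lowest WT library, at 12672 (limma, adjusted p = 0.597). It was 1 of these 14 genes to do so, where 0.938% of all genes tested did. Of 12 further anaplerosis and glutamate genes 0 were called, 6 had a lower and 6 a higher mean, and the median was -0.01. Glul, glutamine synthetase, averaged 3967 ± 453 in MC4R-/- and 4684 ± 258 in WT (limma, adjusted p = 0.182). The transcript of Nnt, named for nicotinamide nucleotide transhydrogenase, averaged 3578 ± 200.2 in MC4R-/- and 4114 ± 298 in WT (limma, adjusted p = 0.216). Whether it gives a working enzyme in these mice was not tested. Of 19 further branched-chain genes 0 were called, 10 had a lower mean and the median was -0.0069. Mmachc, which processes cobalamin, averaged 465 ± 43.3 in MC4R-/- and 406 ± 13.1 in WT (limma, adjusted p = 0.408), and Oxct1, the ketone body transferase, averaged 11237 ± 981 in MC4R-/- and 12246 ± 716 in WT (limma, adjusted p = 0.538).

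Among 11 transcriptional regulators of oxidative and branched-chain genes, 1 was called and 8 had a lower mean in MC4R-/-, with a median log2 fold change of -0.08. Of all genes tested, 0.459% were called and 51.6% had a lower mean log2 value. Ppargc1a, the coactivator PGC-1α of mitochondrial genes, fell in MC4R-/- ventricles, with 653, 750.0 and 860.0 normalized counts as the lowest, median and highest, against 1072, 1094, 1112 and 1097 in WT. The means were 755 ± 67.9 in MC4R-/- (SD, n = 6) and 1094 ± 16.5 in WT (SD, n = 4), and the log2 fold change was -0.54 ± 0.07 (SE; limma, adjusted p = 0.000316). Its adjusted p was at most 0.00478 without any 1 library, but 0.167 in limma without the trend and robust steps, where no gene of the table was called. Klf15, a glucocorticoid-induced regulator of branched-chain amino acid genes in muscle, averaged 325 ± 66.5 in MC4R-/- and 431 ± 62.5 in WT (log2 fold change -0.42 ± 0.14; limma, adjusted p = 0.288).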

How the data were processed

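Libraries were poly(A)-selected with a stranded KAPA kit from 200 ng of RNA with an integrity number above 7, per the labels' protocols. Per the submitters' processing notes, the build was mm10 and the tools include Cuffnorm 2.2.1.1, Cuffdiff 2.2.1.3, Cufflinks 2.2.1 and TopHat2 2.1.0 with Bowtie2, in no stated order, and no strand setting or annotation release is given there. The authors deposited a signal per gene that, by its steps, is a read count over a size factor of the library. Of the values above 0, 99.99 to 100% came out whole within 0.1 when divided by the step of 1 read, which gave the reads back. Depth was 4145033 to 6425785 reads per library.

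Rows were matched by RefSeq accession to symbols of GRCm38.p6 (mm10), which named 23984 rows. Genotypes were compared in R 4.3.3 with limma 3.58.1 (trend and robust) on log2(normalized count + 1), for 14611 genes with a mean of at least 1, with Benjamini-Hochberg adjustment and a threshold of 0.05. This scale understates the fold change of low genes. Pairs were compared by exact permutation over the 210 arrangements of 6 and 4 libraries. Alternatives were other pseudocounts, filters and scalings, library weights, a replicate block, edgeR 4.0.16 and DESeq2 1.42.0 on the recovered reads, and libraries left out. The limma fit was also run on simulated data, whose changes were all larger than those of the genes followed here. That run therefore does not show whether differences as small as theirs would be found.

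The genes and lists were chosen with earlier results of these data known, and the motifs after the values were seen. Libraries are shown in full for the 4 genes with the smallest p in each group and the 1 with the highest mean. Other lists give the genes called, or else the 2 with the smallest p.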

Additional observations from a re-analysis of the deposited data

Results flagged for a closer look

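In 6 of 108 groups of libraries examined, for the 38 genes, the 12 pairs and the averages over genes, 1 library stood apart from the others by Dixon's criterion, and chance alone gives about 1 in 20. Idh2 had 15808 normalized counts in MC4R-/- replicate 6, against 12602 to 13804 in the other MC4R-/- libraries. Bckdk had 821 in the same library, against 679 to 723 in the other MC4R-/- libraries. Sucla2 had 5929 in WT replicate 3, against 4949.8 to 5114 in the other WT libraries, and Hibadh had 2489 there, against 2267 to 2295. The log2 ratio of Bckdha to Bckdhb was 1.97 in WT replicate 3, against 2.21 to 2.26 in the other WT libraries. The log2 ratio of Bcat2 to Got2 was -3.23 in MC4R-/- replicate 5, against -2.96 to -2.89 in the other MC4R-/- libraries.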

How the results depend on the processing

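The number of genes called over the whole table was 67 and depended on the model: 0 without limma's trend and robust steps, 118 with library weights, 122 by DESeq2 and 167 without WT replicate 2 and MC4R-/- replicate 5. Leaving out 1 library gave 26 to 118 calls. Of the 38 genes, 0 were called in the main limma fit, 1 after quantile normalization, 1 with library weights, 2 by DESeq2, 2 without those 2 libraries, and 0 to 1 when 1 library was left out. The 12 genes with the smallest p kept the sign of their change in all 23 alternatives, and the 3 group medians stayed below 0. Of the other 26 genes, 12 changed sign in at least 1 alternative, all with an absolute log2 fold change of at most 0.035.

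When 1 library, or WT replicate 2 with MC4R-/- replicate 5, was left out, pair differences near 0 took either sign: -0.040 to 0.070 for Bcat2/Got2, -0.061 to 0.051 for Bckdha/Ogdh, -0.069 to 0.018 for Got2/Got1, -0.044 to 0.044 for Idh2/Idh1, -0.103 to 0.0091 for Idh2/Idh3a, -0.123 to 0.037 for Mccc1/Mccc2, -0.065 to 0.024 for Mdh2/Mdh1 and -0.021 to 0.081 for Pcca/Pccb. Idh2/Idh1 was -0.044 without both libraries. The cause was not tested. Me3/Me1 stayed between -0.35 and -0.25.

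The replicate numbers did not pair the libraries: the correlations of same-numbered libraries were -0.060, -0.032, -0.060 and -0.0035, and 0 of 8 libraries correlated best with their own number. With the replicate number as a block, 52 genes and 0 of the 38 were called, the group medians were -0.03, -0.07 and -0.06, and the limma adjusted p was 0.204 for Me1 and 0.366 for Aldh6a1. The depth of WT replicate 3 limits the lowest gene, Pcx, to 171 reads there.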

Other observations

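Motifs were looked up, after the values were seen, in the 47 promoters that RefSeq gives for 35 of the 38 genes (250 bases before to 50 after the start, both strands). The CCAAT box was in 30 of the 47, against 37.4% of all 32851 promoters in the table. TGACNNNGC was in 7 of the 47, against 12.4%, in the genes Bckdhb, Dlst, Idh3g, Mdh1, Me1, Ppm1k and Sucla2. AAGGTCA, the core bound by estrogen-related receptors, was in 2 of the 47 (Got1 and Ogdh), against 4.72%, and the palindromic NRF1 motif was in 4 (Dld, Hibadh, Pccb and Sucla2), against 4.6%. Promoters of 1 gene can overlap each other, and a match is a description of letters in this window. Adsl, adenylosuccinate lyase, which returns carbon to fumarate through the purine nucleotide cycle, was named after its values were seen, since its libraries did not overlap, with 436 ± 13.2 normalized counts in MC4R-/- and 471 ± 6.12 in WT (limma, adjusted p = 0.651). It was 1 of the 12 further anaplerosis and glutamate genes to lie below WT in every library, where 0.938% of all genes tested did.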
